A study of Mus musculus with 3 samples.

Results

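The genes described here encode the chaperones that fold proteins in the cytosol and nucleus, 3 mitochondrial chaperones, and the heat shock factors that switch many of them on. They were chosen by name, 37 in all, and a gene was measured where the array annotation gave at least 1 probe set its single symbol. That held for 35 of the 37 genes, out of 18193 genes on the array. Hsp90ab1 and Hsf1 had no such probe set and were not analysed here. Where a gene had several probe sets, as 24 of the 35 did, the brightest on average was read.

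The cells were MC3T3-E1, an established mouse preosteoblast line from C57BL/6 calvaria, the roof of the skull. They were kept for 3 days at 37 °C in 1 of 3 media. One culture had osteogenic medium to which 0.6% of the polar solvent dimethyl sulfoxide (DMSO) was added. Another had osteogenic medium without DMSO, and the last had normal medium, which is MEM α with 10% fetal bovine serum. Both osteogenic media held the same base and serum plus 150 µM ascorbic acid 2-phosphate, which collagen-making cells use as vitamin C, and beta-glycerophosphate at 10 mM. These additions were always made together, and no array of normal medium with DMSO was analysed here, so the parts of osteogenic medium cannot be told apart and DMSO is seen only on top of it. There was 1 array per medium and no replicate, so no difference could be tested, and how precise any value is depends on that small number of arrays.

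Chaperones of the HSP70 family grip unfolded stretches of protein in cycles of ATP binding and hydrolysis. J-domain proteins, also called HSP40, hand them clients and trigger hydrolysis, and nucleotide exchange factors of the HSP110 and BAG families release the client. HSP90 and its cochaperones finish kinases and steroid receptors, the TRiC/CCT ring folds actin and tubulin, and small heat shock proteins hold unfolding clients without ATP. Under heat or other protein-damaging stress, heat shock factor 1 binds inverted repeats of GAA in promoters and raises many of these genes at once.

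All values are log2 values as deposited, and a difference of 1 is 2-fold. Values under 3.54, the 50th percentile over all probe sets, were raised to it, and this level is called the floor. Of the 35 genes, 33 lay above it on all 3 arrays. Hspa4l was above it only with DMSO and Hsf2 on no array. A smaller mark of 0.3 on the log2 scale, or 1.23-fold, was also used to count genes. For scale, differences read by probe sets of the same gene scattered with an SD of 0.11 for DMSO and 0.13 for the osteogenic additions. That scatter leaves out the spread between cultures, which is unknown. Directions are relative to the median of all genes. Centred on the hybridisation spikes instead, that median was 0.03 with DMSO and -0.10 for osteogenic against normal medium, so that smaller differences change sign. A lower value in bulk RNA can come from fewer cells of a kind or from less RNA per cell, and these cannot be told apart.

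The defining markers of the osteoblast lineage that were measured, Sp7, Alpl, Ibsp, Col1a1 and Col1a2, were above the floor on all arrays. For osteogenic against normal medium, Ibsp differed by 2.18, Alpl by 1.70 and Sp7 by 0.88, and with DMSO by 0.38, 0.71 and 0.41. Col1a1 and Col1a2 differed by at most 0.18 in either comparison. The part of these markers in the chaperone values was not tested. None of 4 adipocyte markers was above it on any array, nor were Cdh5, Emcn, Pecam1 and Tek of 5 endothelial markers, nor Ptprc, Itgam, Cd68 and Adgre1 of the macrophage and osteoclast list. Ctsk and Csf1r of that list were above the floor and differed by at most 0.25 in size in any comparison. Of 6 chondrocyte markers, 4 were above the floor on all arrays and Acan and Col10a1 on none. For osteogenic against normal medium, Col2a1 differed by 0.85, Matn3 by 0.67, Col9a1 by 0.04 and Sox9 by 0.00, and with DMSO the 4 lay between -0.10 and 0.16. Of 7 skeletal muscle markers, Myod1, Myog, Myh1 and Tnnt3 were below the floor on every array. The array medians lay between 3.54 and 3.58, and the Actb probe sets at both ends of the transcript differed by 0.18 to 0.27.

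**Figure D1:**
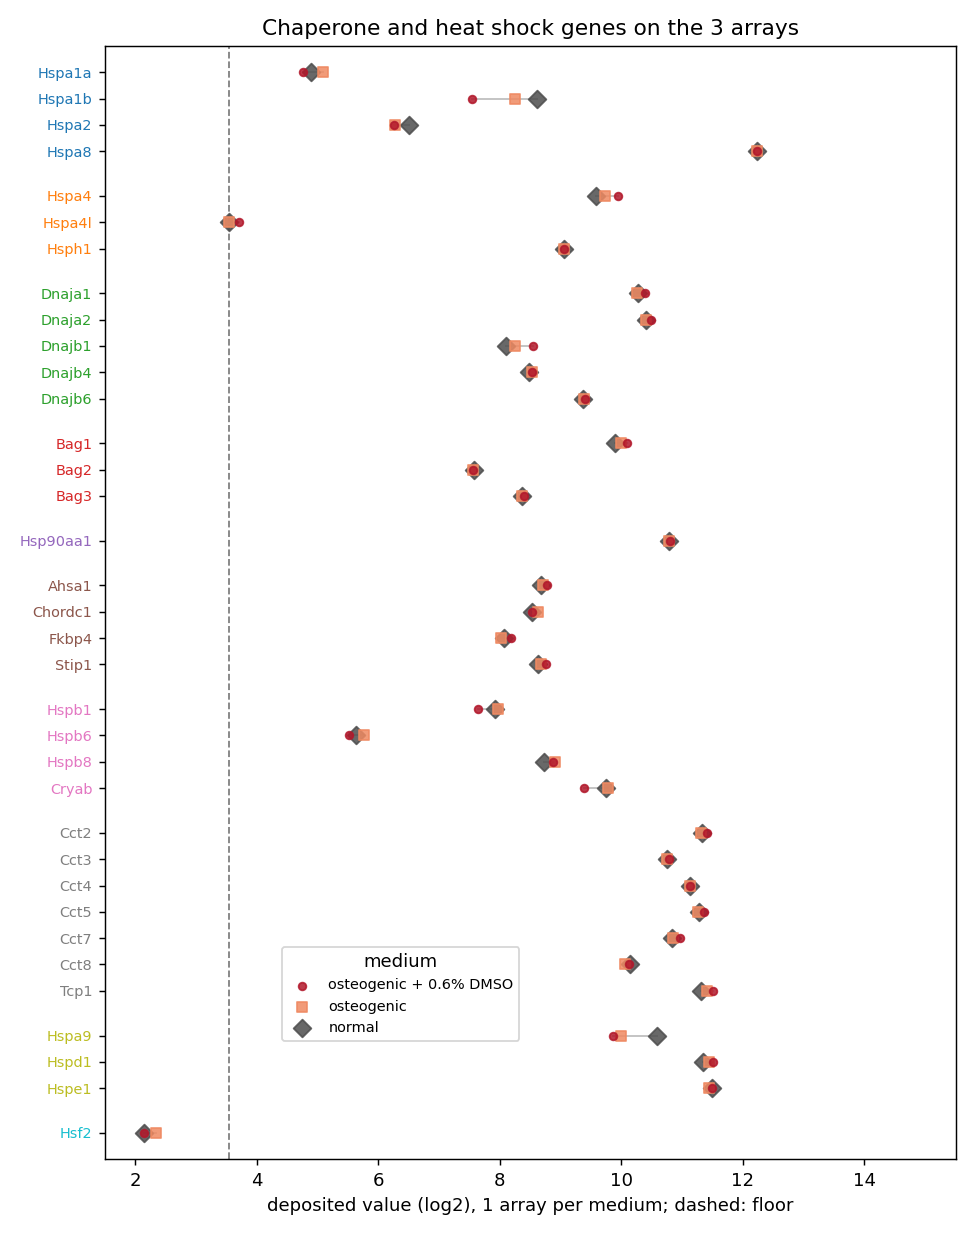
Deposited log2 values (horizontal axis) of the 35 measured genes, 1 row per gene with names coloured by role, for osteogenic medium with DMSO (circles), osteogenic medium (squares) and normal medium (diamonds), with the floor of 3.54 dashed. Most rows overlap closely, while Hspa1b spreads between 7.55 and 8.61 and Hspa9 between 9.87 and 10.59, and rows are not to be ranked since genes have different probes.

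In the comparison of DMSO within osteogenic medium, the inducible HSP70 genes Hspa1b and Hspa1a and the small heat shock genes Cryab and Hspb1 were lower with DMSO, and the J-domain gene Dnajb1 was higher. Hspa1b differed by -0.70, which is 1.62-fold lower. In osteogenic against normal medium, the mitochondrial HSP70 gene Hspa9 differed by -0.59 and Hspa1b by -0.37. By their brightest probe sets, the ring chaperonin, Hsp90aa1, the constitutive Hspa8 and the BAG factors lay between -0.09 and 0.11 in both comparisons. Some dimmer probe sets went further. In osteogenic against normal medium they gave 0.24 for Cct3, -0.21 for Cct4 and 0.19 for Hspa8. With DMSO, 1 of Hsp90aa1 gave 0.15. No gene of the group reached 2-fold in either. In all, 0.657% of genes above the floor reached 2-fold in osteogenic against normal medium and 0.604% with DMSO.

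By the mark of 0.3, 5 of 34 genes differed with DMSO, 1 higher and 4 lower, against 8.67% of the 11423 genes above the floor on at least 1 of the 2 arrays. The higher share was 2.94% of the group against 2.76% of all genes. The lower share was 11.8% against 5.91%. It rests on 4 genes, among them the near-identical Hspa1b and Hspa1a, whose probes can share signal. In osteogenic against normal medium, 2 of 33 genes passed the mark, or 6.06% against 13.4% of 11417 genes. Both were lower, where 6.75% of all genes were lower and 6.63% higher. The median difference of the group was 0.03 with DMSO and 0.01 for osteogenic against normal medium, and that of all genes was 0.00 in both. Equal values on both arrays were common. A difference of exactly 0 was seen for 5 of the 34 genes and 29.2% of all genes with DMSO, and for 6 of the 33 and 24.9% in osteogenic against normal medium. The genes nearest the mark with DMSO were Dnajb1 (0.31) and Hspb1 (-0.32) inside it and Hspb6 (-0.25) and Hspa4 (0.21) outside.

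DMSO against normal medium uses the same arrays, and each difference there is the sum of the other comparisons. By the mark of 0.3, 5 of 34 genes differed, against 19.5% of 11422 genes. Dnajb1 and the brightest probe set of Hspa4 were higher, where 8.9% of all genes were, although other probe sets of Hspa4 gave -0.57 and -0.43. Lower were Hspa1b, Hspa9 and Cryab, where 10.6% of all genes were.

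**Figure D2:**
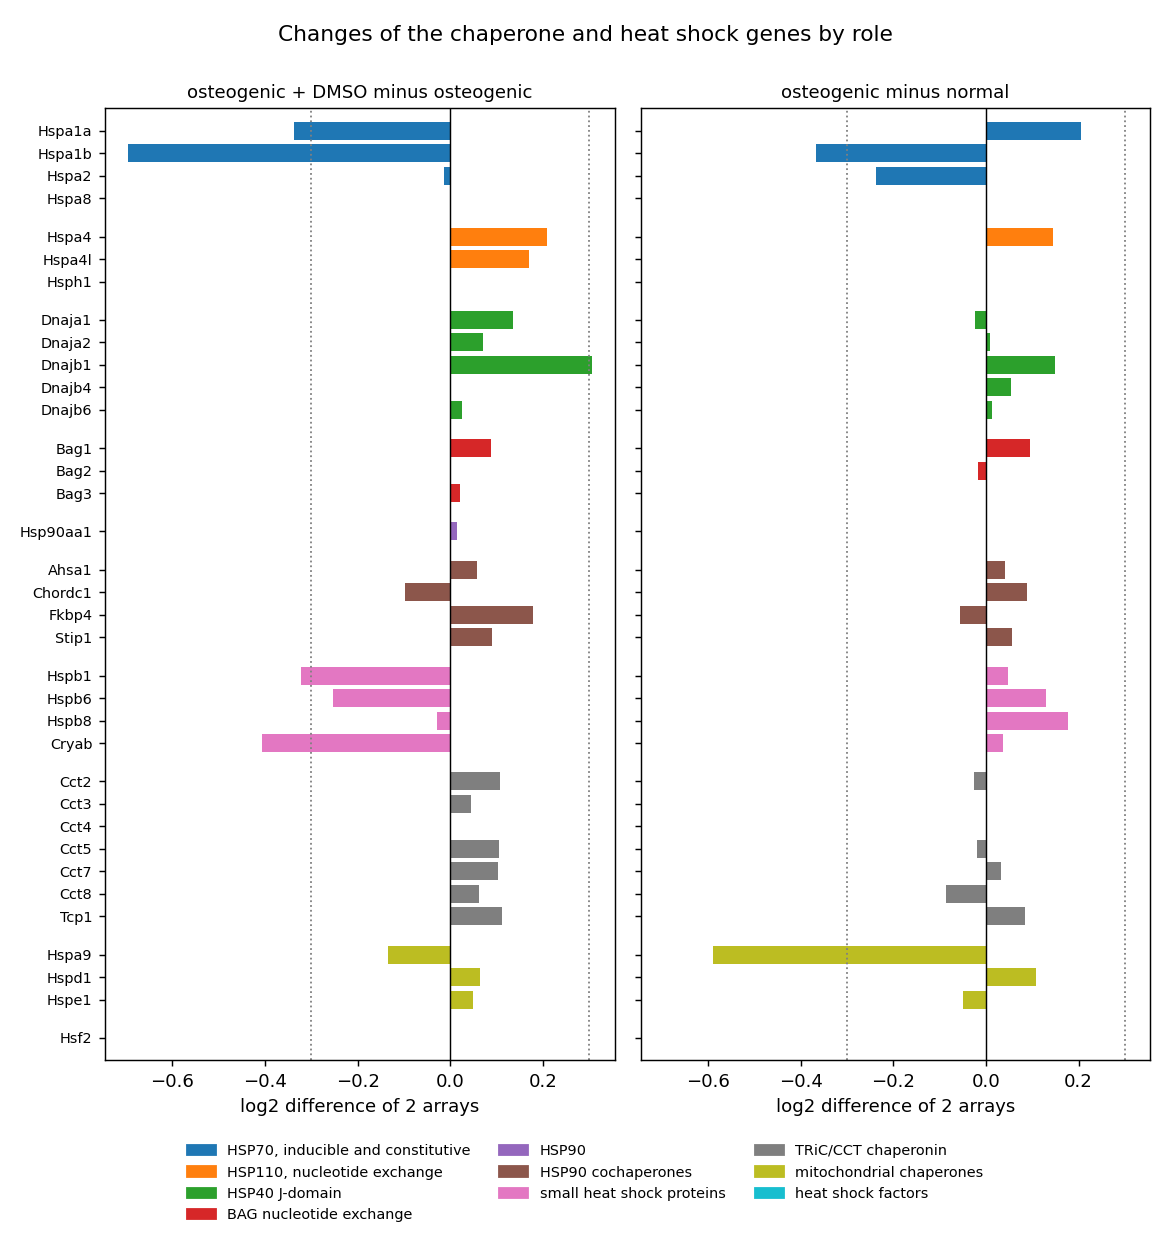
Log2 differences between 2 arrays (horizontal axes) for each gene, coloured by role, with osteogenic medium with DMSO minus osteogenic medium on the left and osteogenic minus normal medium on the right. Bars past the dotted lines at 0.3 in either direction are Hspa1b, Cryab, Hspa1a, Hspb1 and Dnajb1 on the left, and Hspa9 and Hspa1b on the right; a missing bar is a difference of 0 or a gene below the floor.

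Hspa1b and Hspa1a encode nearly identical copies of the stress-inducible HSP70 and lie next to each other on chromosome 17 in the gene table, with no other protein-coding gene between them. Hspa1b read 7.55 in osteogenic medium with DMSO, 8.24 in osteogenic medium and 8.61 in normal medium. The DMSO array was the lowest and the normal medium array the highest. Of the 11423 genes, 172 had a difference as low as that of Hspa1b with DMSO or lower. Its other probe sets differed by -0.76 and -0.83 with DMSO and by -0.33 and -0.30 for osteogenic against normal medium, so all 3 had one direction in both comparisons. Against normal medium the DMSO array was 2.09-fold lower, a difference of -1.06. It was the only gene of the group to reach 2-fold there, where 1.94% of all genes did and 1.34% did so downwards.

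Hspa1a was read by a single probe set. It gave 4.75 with DMSO, 5.09 in osteogenic medium and 4.88 in normal medium, a difference of -0.34 with DMSO and of 0.21 for osteogenic against normal medium. Its osteogenic medium array was thus the highest, unlike that of Hspa1b. The probe set used for Hspa1b carries the suffix that marks probes shared with other sequences, and the copies are so alike that signal from both genes can reach the same probes. Which copy the values belong to was not tested.

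The start-site regions of both genes are shown because they are so alike and because each holds 1 pair of inverted GAA units. These are the 250 bases before the start site from RefSeq, build GRCm38.p6, minus strand, with GAANNTTC in capitals. Hspa1b lies at chr17:34959239-34959488 and Hspa1a at chr17:34972157-34972406.
Hspa1b: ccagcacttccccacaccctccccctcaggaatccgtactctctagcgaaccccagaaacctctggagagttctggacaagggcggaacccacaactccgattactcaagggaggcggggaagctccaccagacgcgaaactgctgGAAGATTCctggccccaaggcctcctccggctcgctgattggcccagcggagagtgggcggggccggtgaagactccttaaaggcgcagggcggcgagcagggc
Hspa1a: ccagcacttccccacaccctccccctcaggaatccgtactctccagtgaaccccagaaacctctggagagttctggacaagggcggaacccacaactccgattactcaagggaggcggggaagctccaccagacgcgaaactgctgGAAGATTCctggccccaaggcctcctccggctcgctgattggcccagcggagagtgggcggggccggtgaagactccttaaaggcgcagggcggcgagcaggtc
The stretches matched at 247 of 250 positions, and in both the capitals run from 104 to 97 bases before the start.

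The other HSP70 genes differed less. Hspa8, the constitutive HSP70 of the cytosol, read 12.23 on all 3 arrays. Hspa2, known for its part in spermatogenesis, read 6.25 with DMSO, 6.27 in osteogenic medium and 6.50 in normal medium. Its difference was -0.24 for osteogenic against normal medium and -0.01 with DMSO. Normal medium thus held the highest value of Hspa2, and the osteogenic arrays lay close together.

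Among the HSP110 exchange factors, Hsph1 read 9.05 on all 3 arrays, and its other probe set gave -0.11 for osteogenic against normal medium and 0.00 with DMSO. Hspa4 read 9.94 with DMSO, 9.73 in osteogenic medium and 9.59 in normal medium by its highest probe set. A second probe set of Hspa4 gave 8.14, 8.27 and 8.71 in that order, and another 7.91, 8.08 and 8.35. The dimmest gave 4.64, 4.54 and 4.54. The highest probe set therefore put Hspa4 up in both comparisons and the next 2 put it down, and no direction can be given for the gene. It was the only one of 21 genes with several probe sets above the floor whose probe sets had opposite signs with DMSO. In osteogenic against normal medium 7 of the 21 did, and outside Hspa4 their values all lay between -0.16 and 0.19. Hspa4l was not above the floor except with DMSO, where it read 3.71. Its other arrays read 3.54, the floor itself, so its difference with DMSO was 0.17, close to the floor.

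Dnajb1, the main stress-inducible J-domain partner of HSP70, went the other way from Hspa1b. It read 8.55 with DMSO, 8.24 in osteogenic medium and 8.10 in normal medium, with DMSO the highest and normal medium the lowest. The difference was 0.31 with DMSO, just past the mark, and 0.15 for osteogenic against normal medium. Its other probe set gave 8.05, 7.71 and 7.40, with differences of 0.34 and 0.31. Of the 11423 genes, 298 differed upwards by as much with DMSO. The difference fell to 0.29, under the mark, when the arrays were rescaled by quantile normalization or by cyclic loess.

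The region before one of the start sites of Dnajb1, at chr8:83607925-83608174 on the plus strand, is shown beside that of Hspa1b, from which it differed in direction in both comparisons. Hspa1a differed from it in direction with DMSO only. It holds neither GAANNTTC nor TTCNNGAA, which says only that these letters are not in this window.
Dnajb1: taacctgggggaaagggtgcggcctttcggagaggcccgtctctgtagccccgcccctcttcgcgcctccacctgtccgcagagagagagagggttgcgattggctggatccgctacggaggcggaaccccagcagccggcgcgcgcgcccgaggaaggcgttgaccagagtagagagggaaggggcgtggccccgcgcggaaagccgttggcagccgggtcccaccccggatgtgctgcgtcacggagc

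The other J-domain genes stayed under the mark in both comparisons. Dnaja1, a partner of Hspa8, read 10.39 with DMSO, 10.26 in osteogenic medium and 10.28 in normal medium. Its difference with DMSO was 0.14 and its other probe sets gave 0.06 and 0.06. Dnaja2 differed by 0.07 with DMSO, Dnajb6, a suppressor of protein aggregation, by 0.03, and Dnajb4 not at all. In osteogenic against normal medium the 5 J-domain genes ranged from -0.02 to 0.15 by their brightest probe sets. Dimmer ones went further, to 0.31 for Dnajb1 and 0.19 for Dnajb4. They gave -0.26 for Dnaja1, -0.16 for Dnajb6 and -0.13 for Dnaja2. Of the BAG factors, Bag1 read 10.09 with DMSO, 10.00 in osteogenic medium and 9.90 in normal medium. Bag3, a partner of small heat shock proteins in selective autophagy and a strongly heat-inducible gene, differed by 0.02 with DMSO and by 0.00 for osteogenic against normal medium. Bag2 differed by 0.00 and by -0.02 in the same comparisons.

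All 4 small heat shock genes were higher in osteogenic than in normal medium, by 0.04 to 0.18, and all 4 were lower with DMSO, with differences between -0.41 and -0.03. Of all genes, 36.5% were above 0 and 38.7% below 0 in the first of these comparisons, and 30.3% were below 0 in the other. Centred on the spikes, Cryab and Hspb1 turned to -0.07 and -0.05 in the first and Hspb8 to 0.00 in the other. The osteogenic medium array is in both, with opposite signs. Cryab, which encodes αB-crystallin, read 9.38 with DMSO, 9.79 in osteogenic medium and 9.75 in normal medium. The DMSO array stood below both others. The difference with DMSO was -0.41, or 1.32-fold lower, and -0.65 by the other probe set above the floor. With DMSO, 437 genes were as low as Cryab or lower.

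Hspb1, the small heat shock protein that guards actin filaments, read 7.65 with DMSO, 7.97 in osteogenic medium and 7.92 in normal medium. Its difference with DMSO was -0.32, but its other probe set gave -0.08, so the size differs between probes. Centred on the spikes, the difference was -0.29, under the mark. Hspb6, best known in muscle, read 5.51 with DMSO, 5.76 in osteogenic medium and 5.63 in normal medium, a difference of -0.25 with DMSO by its single probe set. Hspb8, which works with Bag3, read 8.88 with DMSO, 8.91 in osteogenic medium and 8.73 in normal medium. It was the member of this family that stayed closest to its osteogenic value.

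Hspb2, a small heat shock gene outside the group, is a neighbour of Cryab in the gene table, with 2310030G06Rik as the 1 other protein-coding gene between or overlapping them. It read 5.06 with DMSO, 5.54 in osteogenic medium and 4.97 in normal medium. Its differences were -0.48 with DMSO and 0.57 for osteogenic against normal medium, so the osteogenic array without DMSO was the highest. Cryab was also highest there, but by only 0.04 over normal medium, less than the scatter between probe sets. Acta1 and Ckm, the muscle markers above the floor on all arrays, differed by 0.04 and 0.00 with DMSO.

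**Figure D3:**
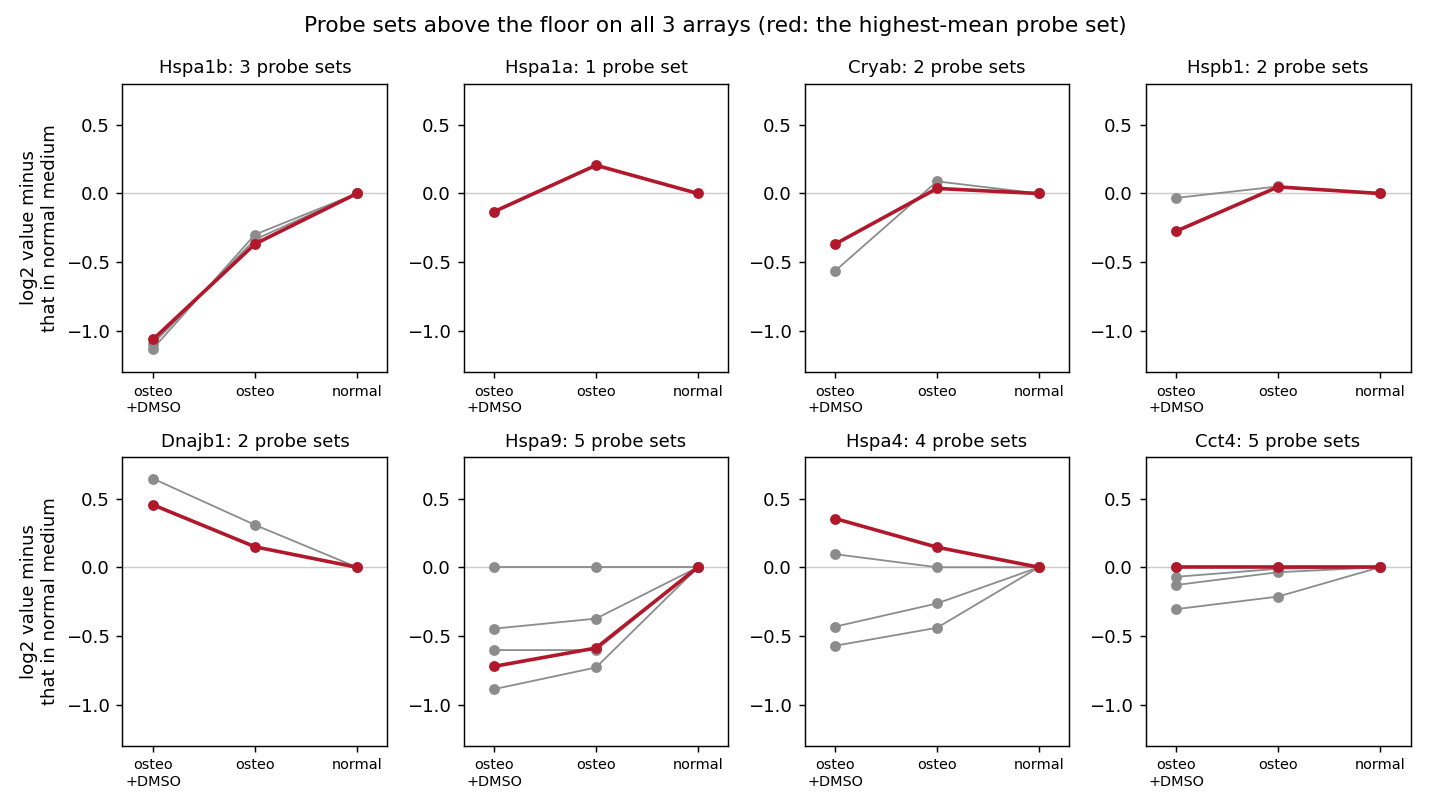
Log2 value of each probe set minus its value in normal medium (vertical axes), on the arrays of osteogenic medium with DMSO, osteogenic medium and normal medium from left to right. Among the probe sets drawn, which are above the floor on all 3 arrays with the brightest in red, the 3 of Hspa1b run together to between -1.06 and -1.13 with DMSO, whereas those of Hspa4 part in both directions.

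Hsp90aa1, the inducible form of cytosolic HSP90, read 10.79 with DMSO, 10.78 in osteogenic medium and 10.78 in normal medium. Another of its probe sets was higher by 0.15 with DMSO and 1 more was equal on all 3 arrays. Among the HSP90 cochaperones, Fkbp4, an immunophilin of steroid receptor complexes, read 8.19 with DMSO, 8.01 in osteogenic medium and 8.07 in normal medium, a difference of 0.18 with DMSO. Stip1, which links HSP70 to HSP90, read 8.77, 8.68 and 8.62 in that order, and Ahsa1, which activates the HSP90 ATPase, 8.78, 8.72 and 8.68. By these values both were highest with DMSO and lowest in normal medium, in steps smaller than the scatter between probe sets. Chordc1, which binds HSP90 through its CHORD domains, was the exception, at 8.52 with DMSO, 8.62 in osteogenic medium and 8.53 in normal medium. The other probe set of Ahsa1 above the floor read 3.77 with DMSO, 3.69 in osteogenic medium and 3.77 in normal medium. That of Fkbp4 read 4.34 on all 3 arrays.

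The TRiC/CCT chaperonin is a double ring built from different subunits, of which 7 measured ones belong to the 37 genes. With DMSO, 6 of these 7 were higher and Cct4 was equal, with a median of 0.10, against 40.5% of all genes above 0. Tcp1 read 11.51 with DMSO, 11.40 in osteogenic medium and 11.32 in normal medium. Its difference of 0.11 with DMSO was the largest of the 7, and that of Cct3 (0.04) the smallest above 0. These differences were no larger than about the scatter between probe sets, an SD of 0.11. Other probe sets of Cct4 were lower with DMSO, by 0.06 to 0.09, apart from 1 that was equal. In osteogenic against normal medium the 7 were mixed, with 2 higher, 3 lower and 2 equal, and values from -0.09 for Cct8 to 0.08 for Tcp1. Cct6a, a further subunit of the ring outside the 37 genes that was added after its values were seen, differed by 0.02 with DMSO and by -0.02 for osteogenic against normal medium.

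Genes of the ring's main clients, actin and tubulin, were read for comparison. Of 9 such genes, 8 were higher in osteogenic than in normal medium and 1 was equal, where 36.5% of all genes were higher. Of the 8, Actb, Tubb5, Tubb2a, Tubb2b and Tuba1a were higher by only 0.04 to 0.10. That is inside the scatter between probe sets, an SD of 0.13. Centring on the spikes moves this comparison by -0.10, so most of these small differences would change sign. With DMSO 7 were higher, where 40.5% of all genes were. Tubb3 read 5.91 with DMSO, 5.28 in osteogenic medium and 4.02 in normal medium, with a difference of 0.63 with DMSO. It was the only gene of this list to reach 2-fold in osteogenic against normal medium, and none did with DMSO. Tubb4b read 10.44, 10.12 and 9.57 in that order, while Tubb2b was lowest with DMSO, at 5.98, against 6.67 in osteogenic and 6.57 in normal medium. Tubb6 gave 9.20 with DMSO, 9.03 in osteogenic medium and 8.79 in normal medium.

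The mitochondrial chaperones split. Hspa9, the HSP70 of the mitochondrial matrix, also called mortalin, read 9.87 with DMSO, 10.00 in osteogenic medium and 10.59 in normal medium. Both osteogenic arrays thus lay below that of normal medium. The difference was -0.59 for osteogenic against normal medium and -0.13 with DMSO. Of the 11417 genes, 180 were as low or lower in the first of these. Its next probe set gave -0.73, and 2 more gave -0.37 and -0.60. The dimmest, near the floor at 3.87, was equal on all arrays. No probe set of Hspa9 was higher in osteogenic than in normal medium. Hspd1, the HSP60 ring of the matrix, read 11.51 with DMSO, 11.44 in osteogenic medium and 11.34 in normal medium, and its lid Hspe1 read 11.49, 11.44 and 11.49. The other probe set of Hspe1 read 10.17, 10.01 and 9.97 in that order. It differed by 0.16 with DMSO and by 0.05 for osteogenic against normal medium, where the brighter one gave -0.05.

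Hspd1 and Hspe1 are neighbours transcribed away from each other, and the 300-base windows around their start sites overlap by 285 bases on opposite strands. The shared region is shown because it held the longest run of GAA and TTC units among the printed stretches, although neither gene passed the mark in any comparison. It lies at chr1:55087898-55088147 on the plus strand, which is that of Hspe1, with the run of units in capitals.
Hspe1: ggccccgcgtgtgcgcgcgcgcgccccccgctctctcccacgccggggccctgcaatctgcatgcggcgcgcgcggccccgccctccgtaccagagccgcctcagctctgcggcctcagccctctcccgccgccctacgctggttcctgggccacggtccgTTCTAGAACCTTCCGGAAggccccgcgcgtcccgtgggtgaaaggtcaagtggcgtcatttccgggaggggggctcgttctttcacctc

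Across the group, promoters were found in the table for 30 of the 37 genes. Those without one included Cryab and Hspa9, which passed the mark of 0.3, and Hspa8, Hsp90aa1 and Cct4. In windows from 250 bases before to 50 after the start, on both strands, GAANNTTC or TTCNNGAA was found for 16 of the 30 genes, or 53.3%, against 17.0% of 27025 genes. The longer form of 3 alternating GAA and TTC units, each 2 letters apart, overlaps the shorter one. It was found for Chordc1, Dnajb6, Hspd1, Hspe1 and Hsph1, or 16.7% of the 30, against 0.662% of all genes. None of these 5 passed the mark of 0.3 in any comparison, and the brightest probe set of Hsph1 was equal on all arrays. Of all genes, 8.67% passed the mark with DMSO, 13.4% in osteogenic against normal medium and 19.5% for DMSO against normal medium. A count this small in 5 genes shows no departure from these shares. Of the 16 genes with the shorter form, Hspa1b, Hspa1a and Hspb1 passed the mark with DMSO, and the rest of the 16 in no comparison. A match is a description of letters and not of binding.

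**Figure D4:**
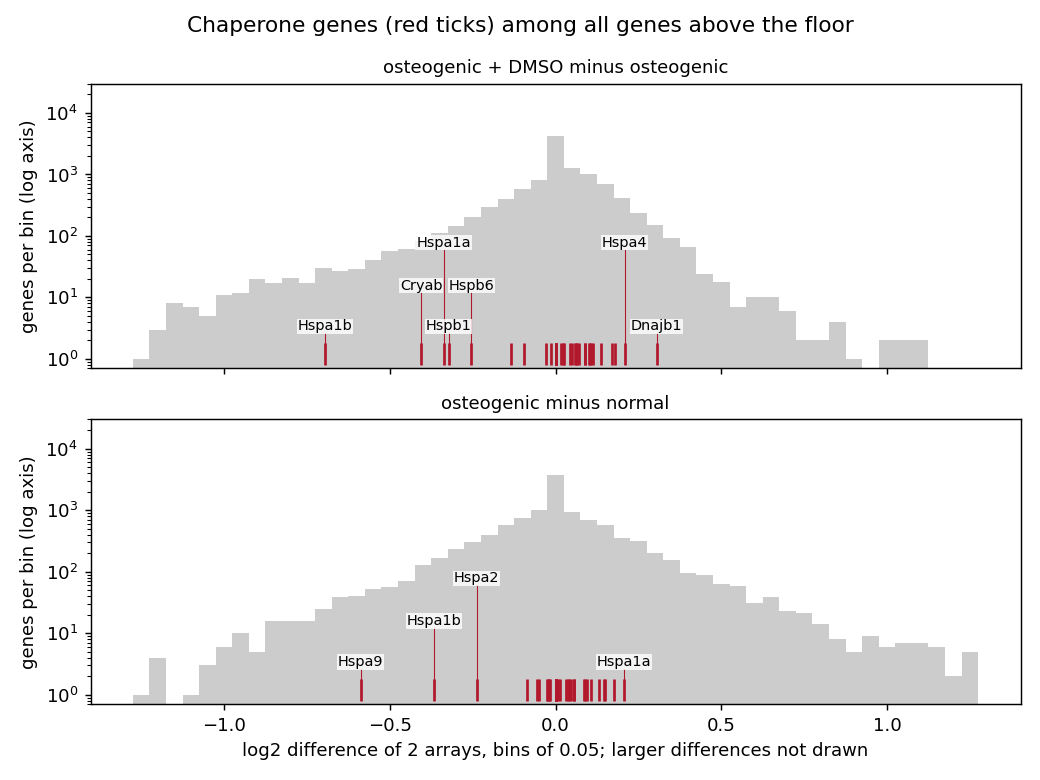
Number of genes per bin of 0.05 (vertical log axis) by log2 difference (horizontal axis) in grey, for osteogenic medium with DMSO minus osteogenic medium (top) and osteogenic minus normal medium (bottom); 38 and 34 genes with larger differences are not drawn. The chaperone and heat shock genes are red ticks, named at 0.2 or more in size. At the top, Hspa1b, Cryab, Hspa1a and Hspb1 lie past 0.3 on the lower side and Dnajb1 on the upper side. Past 0.3 at the bottom are Hspa9 and Hspa1b, both on the lower side, and all other ticks are smaller in size.

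Further genes of the same system were read from lists of other chaperones. Of 32 other cytosolic chaperones and cochaperones, none differed 2-fold in either main comparison. With DMSO 1 was higher by the mark of 0.3 and 1 lower, where 2.76% of all genes were higher and 5.91% lower. In osteogenic against normal medium 2 were higher and 0 lower, where 6.63% of all genes were higher and 6.75% lower. Dnajc9, a J-domain protein that also handles histones, read 9.18 with DMSO, 8.73 in osteogenic medium and 8.03 in normal medium. Fkbp5, an HSP90 immunophilin known as a glucocorticoid target, read 7.41, 7.12 and 6.89 in that order, and Hspa14, an HSP70 of the ribosome-associated complex, 7.99, 7.73 and 7.54. These 3 were highest with DMSO and lowest in normal medium.

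Of 9 other mitochondrial chaperones and proteases, 2 were lower by the mark in osteogenic against normal medium, where 6.75% of all genes were. Hscb, the J-domain protein of iron-sulfur cluster assembly that works with Hspa9, read 5.54 with DMSO, 5.72 in osteogenic medium and 6.40 in normal medium. Lonp1, the protease of the matrix, read 7.47, 7.51 and 8.09 in that order. Grpel1, the nucleotide exchange factor of Hspa9, went the other way, at 9.09, 8.89 and 8.78. Clpb, a disaggregase, read 6.79, 6.62 and 6.58.

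Of 6 other genes that heat shock factor 1 is known to raise, 1 passed the mark in osteogenic against normal medium and none with DMSO. Of all genes, 13.4% and 8.67% passed it in these comparisons, so counts this small in 6 genes show no departure. That gene was Hmox1, the heme oxygenase, at 6.81 with DMSO, 6.66 in osteogenic medium and 7.04 in normal medium. Ier5 differed by 0.15 with DMSO, Atf3 by 0.00 and Sqstm1 by 0.00. Proteasome subunits, which degrade what chaperones cannot refold, were higher with DMSO in 21 of 24 cases, against 40.5% of all genes, with a median of 0.11 and no gene past the mark. The leading ones were Psmb3 (0.26), Psmc3 (0.23), Psma7 (0.21) and Psmd1 (0.20). The median was about the scatter between probe sets, an SD of 0.11, and 1 of the 24 was equal, against 29.2% of all genes. ER chaperones, the counterpart group of the secretory pathway, were lower in osteogenic than in normal medium in 12 of 14 cases, against 38.7% of all genes, with a median of -0.06. That median is inside the scatter between probe sets, an SD of 0.13, and 0 of the 14 were equal, against 24.9% of all genes. With DMSO, 5 of the 14 were higher and 7 lower, against 40.5% and 30.3% of all genes, and no gene passed the mark in either comparison. Dnajb9, a J-domain protein of the ER, read 7.47 with DMSO, 7.66 in osteogenic medium and 7.81 in normal medium. Canx, calnexin, was instead highest in osteogenic medium, at 10.74, against 10.60 in both others. Pdia3 gave -0.12 and Dnajc3 -0.13 for osteogenic against normal medium.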

How the data were processed

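Total RNA from 3 cultures, 1 per medium, was labelled from 500 ng with a 3' IVT kit and hybridised to Affymetrix mouse genome arrays, per the labels' protocols. The deposited table holds values of 45101 probe sets on a log2 scale, read as log2 from their range of 0.652 to 13.4. How the authors summarised and normalized the probes: not given in the sources used here. Probe sets were named from the platform annotation, and only those with 1 symbol were used, 34945 in all. Each gene took its brightest probe set over the 3 arrays, and values below the floor were raised to it. Differences of 2 arrays were formed without a test. The 35 measured symbols matched the GRCm38.p6 gene table by gene number. Sequences came from RefSeq promoters of that build. The genes and lists were chosen with earlier results of these data known. The text names every measured member, and up to 4 genes with the largest change in each further list of other chaperones, ER chaperones, proteasome subunits, clients and HSF1 targets. Alternatives were the floor, the choice of probe set, the scaling of arrays and the treatment of equal values. The computation was tested on simulated data. Python 3.11.15 with pandas 2.3.3 and numpy 2.4.6 was used, with limma 3.58.1 in R 4.3.3 for cyclic loess.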

Additional observations from a re-analysis of the deposited data

How the results depend on the processing

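The counts of chaperone genes that reached 2-fold, 0 with DMSO, 0 for osteogenic against normal medium and 1 for DMSO against normal medium, were the same under all 9 alternatives of floor, probe set and scaling. The medians of the group moved by less than the scatter between probe sets under these and without equal values. The count past 0.3 in osteogenic against normal medium moved to 4 (1 higher, 3 lower) with the second probe set of each gene, against 2. The other totals past 0.3 stayed within 1.5 times, but their split moved. With DMSO, the 1 higher became 0 under quantile normalization and cyclic loess. For DMSO against normal medium centred on the spikes, 1 was higher and 5 lower, against 2 and 3, with Hspa4 lost and Hspa2 and Hspb1 gained. Hspa4 was reversed for DMSO against normal medium, at -0.14 as the mean of its probe sets and -0.57 by the second probe set, where the highest gave 0.35; the alternatives' construction, other probe sets, shows the source. Centring on the hybridisation spikes moved the median of all genes by -0.10 in osteogenic against normal medium and that of the group to -0.09. Over the 9 alternatives, Hspa1b stayed between -0.76 and -0.66 with DMSO, Cryab between -0.65 and -0.37, Hspb1 between -0.34 and -0.08 and Dnajb1 between 0.29 and 0.34. Hspa9 stayed between -0.73 and -0.46 in osteogenic against normal medium. No paired analysis was possible because each medium has 1 array. Signal near the floor limits Hspa4l and Hsf2.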
